A study of Mus musculus with 6 samples.

Results

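The 10 genes described here encode the antigen-presenting MHC class I molecule of the mouse and the machinery that loads it with peptide. They are the heavy chain genes H2-K1, H2-D1, H2-L, H2-Q4, H2-T22 and H2-T23, the light chain gene B2m, the transporter genes Tap1 and Tap2, and the tapasin gene Tapbp. They are 10 of the 24083 gene symbols in the authors' deposited table, and they were chosen by their FPKM in the R153A and WT libraries described here, so their levels and differences are given as a description, without a test. The libraries were made from polyadenylated RNA of mouse embryonic stem cells, which give rise to all tissues of the embryo. There were 3 libraries of cells with the R153A form of Nanog, a homeobox gene of pluripotent cells, and 3 libraries of cells with wild-type Nanog (WT). Both groups were kept in serum medium with LIF, a cytokine that sustains self-renewal, on gelatin, with no further treatment, and the labels name no feeder layer. The sources used here give neither the mouse strain nor the way R153A was introduced, and they do not say whether libraries within a group are separate cultures or clones. The p-values below therefore measure only the spread between these samples, which may be technical.

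Class I molecules sit at the surface of most nucleated cells and show fragments of the cell's own proteins to CD8+ T cells. Peptides are cut in the cytosol by the proteasome, carried into the endoplasmic reticulum by the TAP1 and TAP2 transporter, and fitted into the groove of a heavy chain paired with beta-2 microglobulin, with tapasin holding the complex to the transporter. Embryonic stem cells are known for low class I expression, which interferon gamma raises in most cell types, and the classical genes H2-K1, H2-D1 and H2-L present peptides to CD8+ T cells, while H2-Q, H2-T and H2-M genes encode nonclassical chains.

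Expression was measured in FPKM, the fragments on a gene divided by its length in kilobases and by the size of the library, a scale that allows levels of different genes to be compared per length. The FPKM values of a library summed to between 360152 and 382086, and the read depth is unknown because no counts were given. Of the 12 embryonic stem cell markers listed, all 12 were tested, 2 were higher and 8 lower in R153A, and their summed level was 2451 to 2567 FPKM in R153A libraries and 4242 to 4996 FPKM in WT libraries. Dppa5a was the largest part of that sum, with a mean of 936 FPKM in R153A and 2575 FPKM in WT, so the sum mostly follows this gene. The higher markers were Lin28a and Dnmt3b, and Tdgf1 and Sall4 were not called. Nanog itself averaged 123 ± 5.16 FPKM in R153A and 253 ± 10.02 FPKM in WT libraries (SD, n = 3 each), which does not check the point mutation. A gene was tested where it reached 1 FPKM in at least 3 of the 6 libraries, with limma on log2(FPKM + 1), and called at a Benjamini-Hochberg adjusted p under 0.05. Of 11817 genes tested, 59.8% were called, with 37.5% called higher and 22.3% called lower in R153A. Calls with at least a 2-fold change on that scale made up 5.98% higher and 2.31% lower, and groups without overlap 39.8% above and 25.2% below WT. The higher genes made up 62.7% of the calls, but 45.6% under median-ratio scaling and 47.4% under quantile normalization. Median-ratio scaling also moved the median log2 fold change of all genes tested to -0.04, against 0.07 without it.

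Of the 10 genes, 9 passed the filter on low values, and all 9 had higher values in every R153A library than in every WT library. All 9 passed the call rule in the higher direction, which 37.5% of all genes tested did, and 39.8% of all genes tested had every R153A value above every WT value. At least a 2-fold change on the log2(FPKM + 1) scale was seen for 8, all but Tapbp, against 5.98% of all genes tested. Because these same values chose the genes, nothing is read from these counts. The exception was H2-T23, which stayed under 1 FPKM in all 6 libraries and was not tested. Tap2 passed the filter through the R153A libraries, since 1 of its WT values lay under 1 FPKM. The median log2 fold change of the 9 genes was 2.04, against 0.07 over all genes tested. In RNA from whole cultures, more cells that express class I and more class I RNA per cell cannot be told apart.

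**Figure D1:**
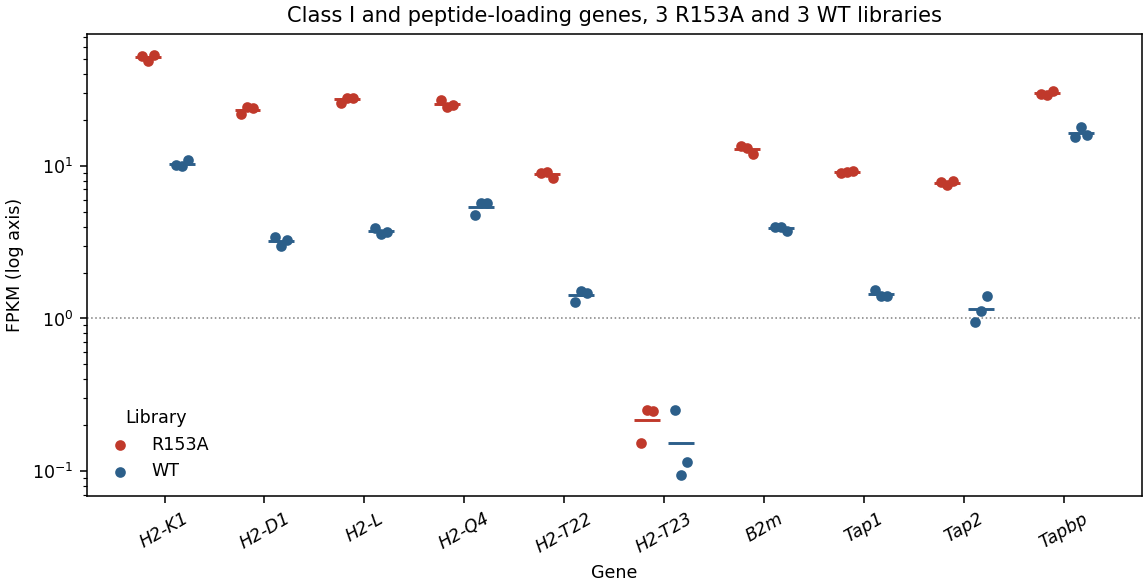
FPKM of the 10 class I and peptide-loading genes on a log axis, with R153A libraries in red left of WT libraries in blue; points are single libraries, bars are the means of 3, and the dotted line marks 1 FPKM. The 3 R153A points lie above the 3 WT points for 9 genes, and the points of H2-T23 overlap under 1 FPKM.

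H2-K1 encodes the K heavy chain, and it was the most abundant heavy chain transcript in both groups. It stood at 52.4, 48.2 and 53.4 FPKM in the R153A libraries and at 10.06, 9.89 and 10.8 FPKM in the WT libraries. The groups were far apart relative to their spread, with 51.3 ± 2.77 FPKM in R153A and 10.26 ± 0.497 FPKM in WT (SD, n = 3 each). The mean was 5.00-fold higher, and the log2 fold change of FPKM + 1 was 2.22 (SE 0.0587). Of all genes tested, 0.516% had a log2 fold change as large or larger.

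H2-D1 encodes the D heavy chain. Its values were 21.9, 24.1 and 23.96 FPKM in R153A and 3.43, 2.99 and 3.28 FPKM in WT libraries. No R153A library came near the WT range, and the mean was 7.21-fold higher (log2 fold change 2.52, SE 0.0674). H2-K1 thus stood in a different proportion to H2-D1 in the libraries of each group: the ratio of H2-K1 to H2-D1 was 2.39, 2.00 and 2.23 in R153A libraries and 2.93, 3.304 and 3.297 in WT libraries, without overlap.

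H2-L encodes a classical heavy chain that only some mouse strains carry and that is close in sequence to H2-D1. It was listed at 25.8, 27.8 and 27.9 FPKM in R153A and at 3.94, 3.56 and 3.69 FPKM in WT libraries, a 7.29-fold higher mean (log2 fold change 2.57, SE 0.0623). Its values followed those of H2-D1 from library to library. The ratio of H2-L to H2-D1 was 1.18, 1.16 and 1.16 in R153A and 1.15, 1.19 and 1.123 in WT libraries, so the ratio overlapped between groups. Whether H2-L values come from reads of H2-D1 was not tested, and the 2 rows may not be separate measurements.

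H2-Q4 lies in the Q region and encodes a nonclassical heavy chain. Its values were 26.9, 24.2 and 25.0 FPKM in R153A and 4.77, 5.73 and 5.72 FPKM in WT libraries. The mean was 4.69-fold higher (log2 fold change 2.04, SE 0.0745). In R153A its level overlapped that of H2-L, whereas in WT libraries it lay above H2-L in each.

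H2-T22 encodes a nonclassical chain known as a ligand of some gamma-delta T cells. It measured 8.93, 9.07 and 8.34 FPKM in R153A and 1.27, 1.51 and 1.47 FPKM in WT libraries, and the 2 sets did not overlap. The mean was 6.19-fold higher (log2 fold change 2.02, SE 0.0743). H2-T23, the gene of Qa-1, which presents leader peptides of other class I chains to CD94/NKG2 receptors, stood at 0.153, 0.251 and 0.246 FPKM in R153A and 0.2503, 0.0946 and 0.115 FPKM in WT libraries. Those values overlap, and no fold is given at that level.

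The promoters of the heavy chain and B2m genes are shown here because class I promoters are known to hold a shared set of elements, and the letters let the genes with large differences be set beside H2-T23. RefSeq promoters of GRCm38.p6, 250 bases before to 50 after a start, were found under the symbols of 8 of the 10 genes, and the most downstream start listed was used. The submitters' notes name another build, mm9, so these coordinates are not those of the deposited values. Each line runs from 8 bases before the first match to at most 8 bases after the last, ends before the start, and is written 5′ to 3′ on the gene's strand. Capitals mark matches, on either strand, to GTTTCACTT (the interferon element of class I genes), GAAA followed after any 2 bases by GAAA (a general interferon response element), GGGGATT followed after any 1 base by CCC (an NF-kB element), TGATGAC (the core of the X box) or CCAAT (the CCAAT box, read as ATTGG on the other strand). The motifs were chosen after these sequences had been seen.
H2-K1, minus strand, chr17:34000334-34000466: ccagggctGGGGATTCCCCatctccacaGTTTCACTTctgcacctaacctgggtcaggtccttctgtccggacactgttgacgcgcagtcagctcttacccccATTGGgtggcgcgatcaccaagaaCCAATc
H2-D1, plus strand, chr17:35262915-35263053: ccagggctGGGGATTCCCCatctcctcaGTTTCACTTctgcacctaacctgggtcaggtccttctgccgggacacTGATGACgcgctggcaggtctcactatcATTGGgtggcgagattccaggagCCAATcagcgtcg
H2-Q4, plus strand, chr17:35379435-35379574: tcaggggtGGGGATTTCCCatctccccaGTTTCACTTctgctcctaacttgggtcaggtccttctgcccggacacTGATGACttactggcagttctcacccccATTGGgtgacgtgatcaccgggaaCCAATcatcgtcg
H2-T22, minus strand, chr17:36042793-36042951: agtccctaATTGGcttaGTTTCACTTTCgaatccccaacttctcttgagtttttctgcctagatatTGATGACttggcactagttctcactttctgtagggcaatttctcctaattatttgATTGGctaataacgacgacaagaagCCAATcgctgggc
H2-T23, minus strand, chr17:36032741-36032833: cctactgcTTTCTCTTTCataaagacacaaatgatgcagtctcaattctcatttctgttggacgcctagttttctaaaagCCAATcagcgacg
B2m, plus strand, chr2:122147540-122147646: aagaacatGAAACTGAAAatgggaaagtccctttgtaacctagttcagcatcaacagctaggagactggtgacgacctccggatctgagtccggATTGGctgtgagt
GTTTCACTT stood in 0.414% of 27025 RefSeq promoters, the interferon response element in 3.52%, the NF-kB element in 0.0666%, TGATGAC in 3.35% and CCAAT in 37.8%. H2-K1, H2-D1 and H2-Q4 each held GTTTCACTT and, upstream of it, the NF-kB element, and H2-D1 and H2-Q4 also held TGATGAC. In H2-T22 the GTTTCACTT match overlaps a match to the interferon response element on the other strand, and the NF-kB element is not in the window. H2-T23, which was under 1 FPKM throughout, held the interferon response element and CCAAT and neither GTTTCACTT nor the NF-kB element in its window. B2m held the same motifs as H2-T23. Tap1 and Tapbp held only CCAAT among these motifs. Promoters of some genes described below were searched in the same way. Psmb8, Psmb10 and Irf1, with log2 fold changes of 2.65, 1.55 and 1.93, held none of these motifs, and neither did H2-M5 (-1.96). Psmb9 (2.02) held only CCAAT, and Erap1 (1.82) only the interferon response element. Whether the motifs bear on the differences in level was not tested. A match describes letters only, and no binding was measured.

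Class I transcripts share long stretches of sequence, so the reads behind these rows can be shared. By runs of 50 bases in GENCODE M21 transcripts, 8.79% of the runs of the longest coding H2-K1 transcript were also found in transcripts of another gene, 14.3% of those of H2-D1, 39.2% of H2-Q4, 44.7% of H2-T22 and 29.8% of H2-T23. The largest partner of H2-T22 was H2-T10, with 37.9% of the runs. B2m had none. Tap1 shared 6.47% and Tap2 12.6%, and Tapbp shared 21.0%, with Gm19412 as its largest partner. H2-L was not analysed here for want of a matching transcript. How the authors' counting assigned shared reads is not given in the sources used here, so the level of a single H2 row is uncertain.

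The sum over the 6 heavy chain genes depends less on how shared reads among them were split. Sharing with genes outside the 6 still touches it, as for H2-T22 with H2-T10 (37.9% of runs) and H2-Q4 with Gm11131 (16.1%). The sum was 136, 134 and 139 FPKM in R153A libraries and 23.7, 23.8 and 25.1 FPKM in WT libraries. The mean was 136 ± 2.62 FPKM in R153A and 24.2 ± 0.783 FPKM in WT (SD, n = 3 each), a 5.63-fold higher sum, and 5.33-fold without H2-L. H2-K1 made up 38.5%, 36.0% and 38.5% of the sum in R153A libraries and 42.4%, 41.6% and 43.1% in WT libraries, and H2-T23 at most 0.188% in R153A and 1.06% in WT.

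B2m encodes beta-2 microglobulin, the light chain without which class I chains are not stable at the surface. It lies on chromosome 2, outside the MHC region. Its values were 13.5, 12.96 and 11.9 FPKM in R153A and 3.97, 3.95 and 3.74 FPKM in WT libraries. R153A libraries were all higher, with a 3.29-fold higher mean (log2 fold change 1.49, SE 0.0680). The heavy chains stood higher relative to B2m in R153A: their sum divided by B2m was 10.08, 10.31 and 11.7 in R153A libraries and 5.98, 6.02 and 6.71 in WT libraries, without overlap. The ratio compares RNA levels per length and says nothing of protein.

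**Figure D2:**
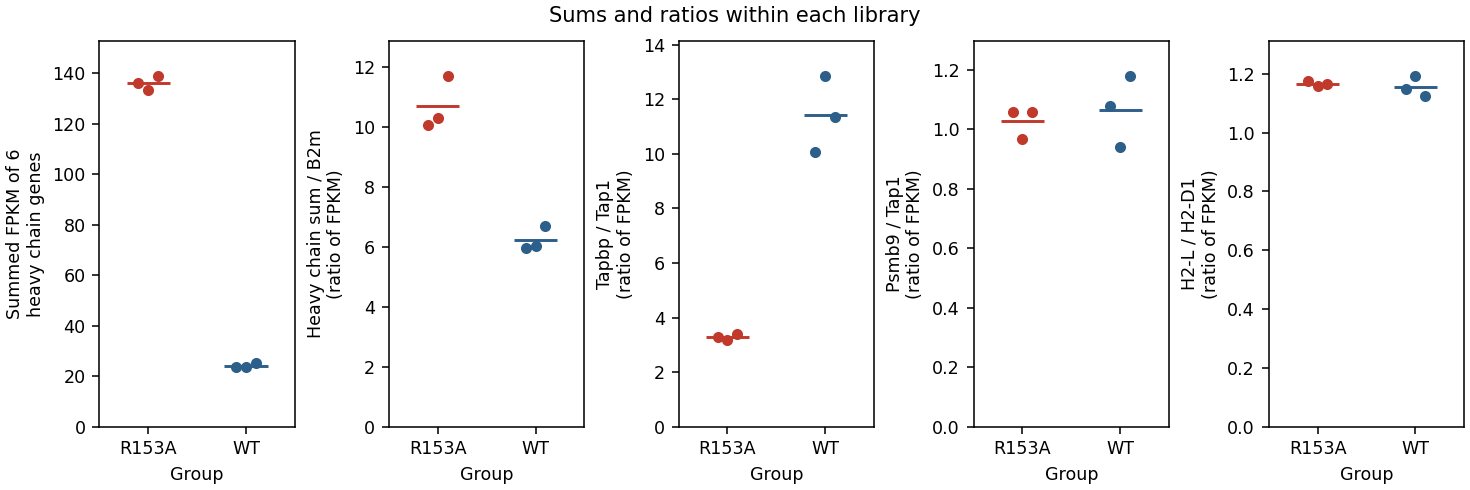
Summed FPKM of the 6 heavy chain genes and 4 ratios of FPKM within each library, R153A in red left of WT in blue, with points for libraries and bars for means of 3; every axis starts at 0. The sum and its ratio to B2m lie higher in R153A, Tapbp over Tap1 lies lower, and the ratios of Psmb9 to Tap1 and of H2-L to H2-D1 overlap.

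Tap1 and Tap2 encode the 2 subunits of the transporter that carries peptides into the endoplasmic reticulum. Tap1 stood at 8.93, 9.11 and 9.17 FPKM in R153A and at 1.54, 1.398 and 1.41 FPKM in WT libraries, a 6.26-fold higher mean (log2 fold change 2.04, SE 0.0683). Tap2 stood at 7.77, 7.45 and 7.95 FPKM in R153A and at 0.955, 1.12 and 1.40 FPKM in WT libraries, a 6.66-fold higher mean (log2 fold change 2.02, SE 0.0868). The 2 subunits had like levels, and their ratio, Tap1 over Tap2, was 1.15, 1.22 and 1.15 in R153A and 1.61, 1.25 and 1.01 in WT libraries, which overlap.

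Tapbp encodes tapasin, which bridges the transporter and the empty class I molecule. It measured 29.5, 29.1 and 31.0 FPKM in R153A and 15.5, 17.9 and 15.98 FPKM in WT libraries. These sets do not overlap, but the difference was the smallest of the 9 genes, with a 1.81-fold higher mean (log2 fold change 0.82, SE 0.0623). In WT libraries tapasin RNA was the highest of the 10 genes. Tapbp over Tap1 was 3.301, 3.19 and 3.38 in R153A libraries and 10.05, 12.8 and 11.3 in WT libraries. Of all genes tested, 8.68% had a log2 fold change at or above that of Tapbp, compared with 2.22% for B2m and 0.254% for H2-L.

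The order of the levels differed between the groups. In R153A libraries the FPKM fell in the order H2-K1, Tapbp, H2-L, H2-Q4, H2-D1, B2m, Tap1, H2-T22, Tap2 and H2-T23, and the ranges of H2-L and H2-Q4, and those of Tap1 and H2-T22, overlapped. In WT libraries the order was Tapbp, H2-K1, H2-Q4, B2m, H2-L, H2-D1, Tap1, H2-T22, Tap2 and H2-T23. There the ranges of B2m and H2-L overlapped, as did those of Tap1 and H2-T22 and those of H2-T22 and Tap2. The ranges of all other neighbours in either order did not overlap.

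The following genes of the pathway were not among the 10 and come from lists written from general knowledge of class I biology, with results of these data known. The first list is the immunoproteasome, whose subunits replace those of the standard proteasome and cut peptides suited to class I, with its activator. Of 6 genes tested, 5 rose in R153A, 0 fell and 1, Psme3, was not called, against 37.5% called higher and 22.3% called lower among all genes tested. Psme3 was called lower under median-ratio scaling, TPM and quantile normalization. Means are given ± SD over 3 libraries of a group. Psmb8 averaged 14.4 ± 0.625 FPKM in R153A and 1.46 ± 0.380 FPKM in WT (log2 fold change 2.65, SE 0.101, limma adjusted p = 4.0e-09). Psmb9 averaged 9.31 ± 0.459 FPKM in R153A and 1.55 ± 0.200 FPKM in WT (log2 fold change 2.02, SE 0.0807, limma adjusted p = 5.6e-09). Psmb10 and Psme2, a subunit of the activator, rose by 1.55 and 1.57 on the log2 scale. The list's median log2 fold change was 1.56, against 0.07 over all genes tested. Psmb9 and Tap1 are neighbours with starts close together on opposite strands, and Psmb9 over Tap1 was 1.06, 0.966 and 1.06 in R153A libraries and 1.08, 0.940 and 1.18 in WT libraries. Tap1 and Psmb9 also share 5.61% of the runs of the Tap1 transcript.

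Of 17 other assembly and folding genes of the endoplasmic reticulum, all tested, 7 rose, 3 fell and 7 were not called. All genes tested had 37.5% called higher and 22.3% called lower, and the shares of this list were near that background. The median log2 fold change of the list was 0.01. Erap1, the aminopeptidase that trims peptides in the endoplasmic reticulum, averaged 7.24 ± 0.109 FPKM in R153A and 1.34 ± 0.0241 FPKM in WT (log2 fold change 1.82, SE 0.0679, limma adjusted p = 3.5e-09). Tapbpl, which encodes the tapasin-related protein TAPBPR, an editor of class I peptides, averaged 3.74 ± 0.374 FPKM in R153A and 0.847 ± 0.409 FPKM in WT (log2 fold change 1.38, SE 0.135, limma adjusted p = 5.7e-06). Its WT values were 0.599, 1.32 and 0.623 FPKM, so Tapbpl passed the filter through R153A. Sec61b, a subunit of the protein-entry channel, rose by 0.66 on the log2 scale, and Uggt1, a folding sensor for glycoproteins, fell by 0.56. Under median-ratio scaling 7 genes of this list were lower in place of 3.

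**Figure D3:**
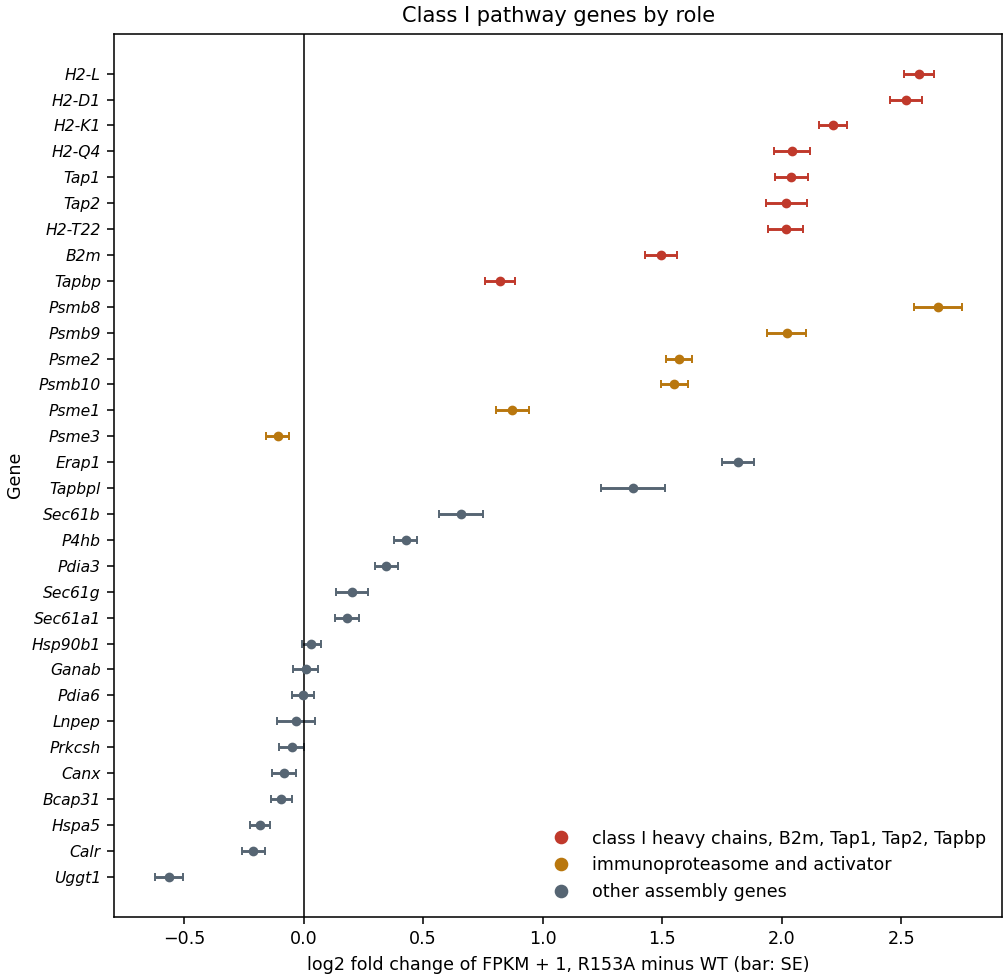
Log2 fold changes of FPKM + 1, R153A minus WT, for the class I heavy chain, transporter and tapasin genes that were tested (red), the immunoproteasome and its activator (ochre) and other assembly genes (grey), with bars for the SE. The 9 red points lie between 0.82 and 2.57, and most grey points lie close to 0 apart from Erap1 and Tapbpl.

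Of 40 other class I and class I-like genes listed, 39 were in the table and 18 were tested, of which 10 rose, 4 fell and 4 were not called, against 37.5% higher and 22.3% lower over all genes tested. The median log2 fold change was 0.33, and 1 of the genes that fell met the filter through WT alone, with R153A values all under 1 FPKM. H2-T9 averaged 9.25 ± 0.387 FPKM in R153A and 1.48 ± 0.128 FPKM in WT (log2 fold change 2.05, SE 0.0736, limma adjusted p = 2.7e-09), but H2-T9 over H2-T22 was 1.05, 1.05 and 1.06 in R153A and 1.05, 1.02 and 1.07 in WT libraries, and whether these rows hold the same reads was not tested. H2-Q6 and H2-Q8 rose by 1.17 and 1.15 on the log2 scale and stood in a ratio, Q8 over Q6, of 0.976 to 0.979 in R153A and 0.972 to 0.986 in WT libraries. In WT libraries 2 and 3, H2-Q6 stood at 0.972 and 0.843 FPKM and H2-Q8 at 0.945 and 0.830 FPKM. Both genes thus passed the filter through R153A. So did H2-Q2, H2-M3 and H2-K2, which also rose. They stood at 0.899 FPKM in WT library 2, 0.958 FPKM in WT library 1 and 0.650 FPKM in WT library 2. In the other direction, H2-Bl fell and stood at 0.874 FPKM in R153A library 2, so it passed through WT. The counts of this list therefore rest in part on the filter. H2-M5, a nonclassical gene at the far end of the region, went the other way. It stood at 3.01, 2.21 and 2.88 FPKM in R153A and at 12.4, 13.6 and 13.9 FPKM in WT libraries (log2 fold change -1.96, SE 0.0915, limma adjusted p = 1.7e-08).

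Not all genes of the MHC region on chromosome 17 moved. In the order of the RefSeq gene table, 85 tested genes of the region could be placed, 7 of them among the 10 described here. Apart from class I and class II genes, Tap1, Tap2, Tapbp, Psmb8 and Psmb9, 66 tested genes of the region were listed. Of these 17 rose, 25 fell and 24 were not called, against 37.5% higher and 22.3% lower over all genes tested, with a median log2 fold change of -0.02. Ltb, the lymphotoxin beta gene, rose by 3.11 on the log2 scale, Clic1 by 0.91 and Ppt2 by 0.75, and Gabbr1 fell by 1.11. The nearest tested protein-coding genes on either side of a gene of the set that could be placed were 14 in all. Of these 5 rose, 1 fell and 8 were not called, against 37.5% higher and 22.3% lower over all genes tested. The share that rose was near that background, so nothing is read from the count. The 5 that rose were other class I, class II or immunoproteasome genes: H2-Q2 between H2-D1 and H2-Q4 (log2 fold change 1.11, limma adjusted p = 3.3e-06), H2-Q6 beyond H2-Q4, and Psmb9, Psmb8 and H2-Ab1 beside Tap1 and Tap2. H2-Q2 stood at 0.899 FPKM in WT library 2, so like H2-Q6 it passed the filter through R153A. Gm8909, next to H2-T22 and H2-T23, averaged 5.46 ± 0.423 FPKM in R153A and 14.8 ± 1.24 FPKM in WT and fell by 1.29 on the log2 scale (SE 0.0769, limma adjusted p = 1.1e-07). H2-T24 on their other side was not called (0.12). Vps52 and Ring1 beside H2-K1 were not called, with log2 fold changes of 0.14 (SE 0.0701, limma adjusted p = 0.10) and 0.10 (SE 0.0896, limma adjusted p = 0.37). Zbtb22 and Rgl2 beside Tapbp (limma adjusted p = 0.46 and 0.075), Ddx39b before H2-D1 (0.52), and Patl2 and Sord beside B2m on chromosome 2 (0.086 and 0.63) were not called either. Those p-values do not show that levels were equal.

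**Figure D4:**
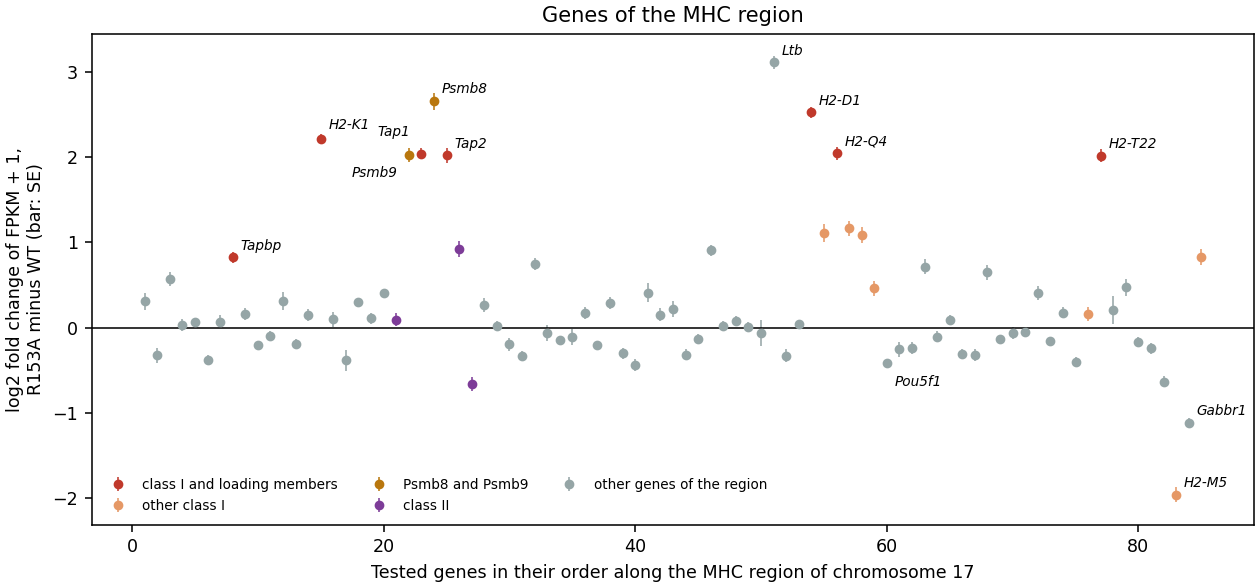
Log2 fold changes of FPKM + 1, R153A minus WT, for 85 tested genes in their order along the MHC region, with bars for the SE, where the step between points is gene order and not distance. H2-K1, Tap1, Tap2, Psmb9, Psmb8, H2-D1, H2-Q4 and H2-T22 lie between 2.02 and 2.65, Ltb at 3.11, other H2-Q genes and H2-Ab1 lie above 0, and H2-M5 and Gabbr1 are lowest.

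Among class II genes and their accessory genes, whose products show peptides to CD4+ T cells, 5 of 12 were tested, 2 rose, 2 fell and 1 was not called, against 37.5% higher and 22.3% lower over all genes tested. H2-Ab1 rose by 0.92 and Cd74, the invariant chain, by 0.77 on the log2 scale. H2-Eb1 fell by 0.66, but it stood at 0.568, 0.731 and 0.542 FPKM in R153A and at 1.58, 1.51 and 1.54 FPKM in WT libraries, so it passed the filter through WT alone. Ifi30 averaged 30.9 ± 1.77 FPKM in R153A and 37.0 ± 4.87 FPKM in WT (log2 fold change -0.25, SE 0.0833, limma adjusted p = 0.024). That call was lost without R153A library 1 (limma adjusted p = 0.085), without R153A library 3 (0.050), without WT library 3 (0.072) and with no filter on low values (0.17). The count of class II genes that fell was 1 without R153A library 1 or 3 or WT library 1 or 2, and 0 without WT library 3.

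Of the genes of class I transcription and of interferon signalling, 26 of 32 were tested, 13 rose, 8 fell and 5 were not called, against 37.5% higher and 22.3% lower over all genes tested, with a median log2 fold change of 0.19. Among those that rose, Ifngr2 stood at 0.964, 0.976 and 1.03 FPKM and Jak2 at 0.943, 0.963 and 1.16 FPKM in WT libraries. Both thus passed the filter through R153A. Irf1, an interferon regulatory factor that binds class I promoters, stood at 51.6, 49.5 and 54.6 FPKM in R153A and at 12.5, 13.6 and 12.6 FPKM in WT libraries. R153A libraries were all far above WT libraries, with a limma adjusted p of 6.8e-10 (log2 fold change 1.93, SE 0.0566). Socs1, a feedback inhibitor of interferon signalling, rose by 1.12 on the log2 scale, and Nfkb2, an NF-kB subunit, by 0.86. Socs3, an inhibitor of LIF receptor signalling, averaged 12.8 ± 0.0892 FPKM in R153A and 30.2 ± 1.84 FPKM in WT and fell by 1.17 on the log2 scale (SE 0.0571, limma adjusted p = 2.4e-08). Nlrc5, the class I transactivator, named after its values were seen, was not tested, with 0.0606, 0.0692 and 0.0783 FPKM in R153A and 0.00612, 0.00673 and 0.0178 FPKM in WT libraries.

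Of 16 interferon and TNF family ligands, 1 was tested, which was Ltb, and 7 were listed at 0 in all 6 libraries. Ltb averaged 23.3 ± 0.235 FPKM in R153A and 1.82 ± 0.269 FPKM in WT (log2 fold change 3.11, SE 0.0760, limma adjusted p = 2.8e-10). The interferon genes listed were not tested, being under 1 FPKM in all libraries.

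Of 38 interferon-induced genes, 21 were tested, 15 rose, 5 fell and 1 was not called, with a median log2 fold change of 0.88. Of those tested, 6 were under 1 FPKM in every WT library and so passed the filter through R153A, and 1 passed through WT, with R153A values all under 1 FPKM. The other 14 genes reached 1 FPKM in at least 1 library of each group. Of these 9 rose, 4 fell and 1 was not called, with a median of 0.61. All genes tested had 37.5% higher, 22.3% lower and a median of 0.07. Among the 9, Cxcl10 stood at 0.418 and 0.878 FPKM in WT libraries 1 and 2, so it too passed the filter through R153A. The count of 9 and the median of 0.61 therefore still rest in part on the filter. Gbp2, a guanylate-binding GTPase, stood at 40.7, 43.9 and 43.8 FPKM in R153A and at 2.09, 2.48 and 2.03 FPKM in WT libraries (log2 fold change 3.78, SE 0.0698, limma adjusted p = 4.6e-11). Irgm1, a GTPase of the same kind of response, rose by 2.54 on the log2 scale. Gbp3 stood at 4.13, 4.53 and 4.23 FPKM in R153A and at 0.335, 0.320 and 0.267 FPKM in WT libraries. It is thus 1 of the 6 genes under 1 FPKM in every WT library. Its log2 fold change was 2.02 with a pseudocount of 1 and 3.43 with 0.1. Without any 1 of the 3 R153A libraries, 15 genes of the list were tested and 9 rose, since the 6 genes under 1 FPKM in every WT library no longer met the filter of 3 libraries.

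**Figure D5:**
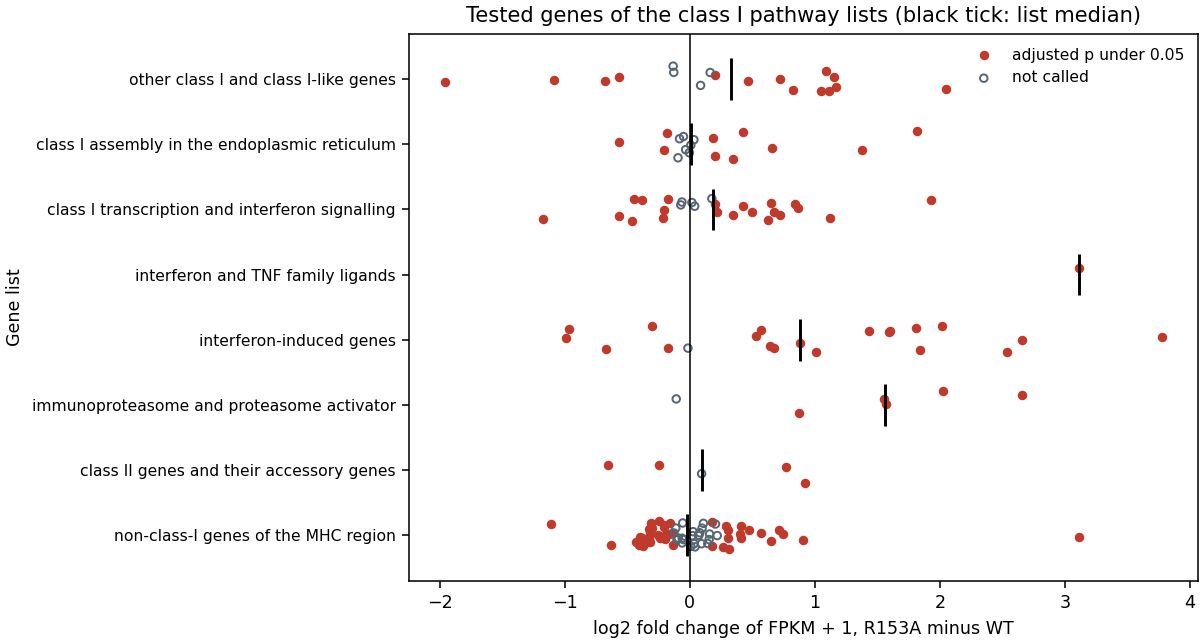
Log2 fold changes of FPKM + 1, R153A minus WT, for the tested genes of 8 lists, with filled points for genes at a limma adjusted p under 0.05, open points for the rest and a black tick for the list median. The medians of the immunoproteasome and interferon-induced lists are 1.56 and 0.88, and that of the other genes of the MHC region is -0.02. For interferon-induced genes that reached 1 FPKM in at least 1 library of each group the median is 0.61.

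The 3 genes outside the set whose levels followed the mean log2(FPKM + 1) of the 9 tested genes of the set most closely over the 6 libraries were Cnn1, Mapk8ip2 and Fam131b, each with a Pearson correlation of 0.9999. Since the libraries fall into 2 groups, such a value mostly reflects the difference between them, and 7.54% of 11808 genes had a correlation above 0.99.

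RNA of other cell types was looked for by markers, since fibroblasts, which can serve as feeders, and immune cells express class I. Of 12 fibroblast and feeder markers, 4 were tested, 2 rose and 0 fell, against 37.5% called higher and 22.3% called lower over all genes tested. The summed level was 11.2 to 11.7 FPKM in R153A and 6.75 to 9.13 FPKM in WT libraries. Col1a1 averaged 2.82 ± 0.102 FPKM in R153A and 1.17 ± 0.258 FPKM in WT, and Col1a2 averaged 1.70 ± 0.199 FPKM in R153A and 0.707 ± 0.0448 FPKM in WT, so Col1a2 passed the filter through R153A. Col1a1 stood at 0.875 FPKM in WT library 1, so its pass also rested on R153A libraries. The other 8 markers were under 1 FPKM in all libraries, and 5 of them had every R153A value above every WT value. Of all genes tested, 39.8% did so, but these had passed the filter. No such share was taken over genes under 1 FPKM, so the 5 have no like background. The means of these 5 markers were 0.316 FPKM in R153A and 0.0600 FPKM in WT for Col3a1, 0.241 FPKM in R153A and 0.0425 FPKM in WT for Dcn, and 0.542 FPKM in R153A and 0.126 FPKM in WT for Twist2. For Pdgfrb they were 0.237 FPKM in R153A and 0.112 FPKM in WT, and for Pdgfra 0.119 FPKM in R153A and 0.0301 FPKM in WT. Thy1 and S100a4, which make up much of the sum, were not called. The part of such cells in the class I values was not tested. Of 16 immune cell markers, 13 were under 1 FPKM in all libraries, and the sum was 5.19 to 6.01 FPKM in R153A and 5.44 to 5.81 FPKM in WT libraries. Ptprc, which encodes the pan-leukocyte antigen CD45, reached at most 0.0163 FPKM in R153A and 0.0147 FPKM in WT libraries. The immune markers that did reach 1 FPKM were Cd68, Lyz2 and Cd79a. Cd68 averaged 3.27 FPKM in R153A and 2.94 FPKM in WT and was not called. Lyz2 averaged 1.13 FPKM in R153A and 0.705 FPKM in WT, and Cd79a 0.770 FPKM in R153A and 1.31 FPKM in WT. Neither of these was tested, and their opposite differences partly cancel in the sum.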

How the data were processed

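RNA-seq of polyadenylated RNA from 3 R153A and 3 WT libraries was used as deposited: the authors gave 1 table of FPKM values, 1 per gene symbol and library, and groups came from the labels. The mouse build was mm9 per the submitters' processing notes, which also name edgeR 3.26.8, HTSeq 0.11.2, SAMtools 1.9 and Bowtie2 2.3.4.3 without their roles. Which tool made the FPKM, with which annotation, strand setting and filters, is not given in the sources used here. Depth is unknown, so no count test and no counting intervals were possible.

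Values were tested as log2(FPKM + 1), where the pseudocount of 1 understates the change of low genes, with limma 3.58.1 (trend, moderated variances, 2-sided) in R 4.3.3. Genes with at least 1 FPKM in at least 3 libraries were tested, 11817 in all, with Benjamini-Hochberg adjustment over all of them. Folds are ratios of mean FPKM, given where each library reached 0.1 FPKM. On simulated data for R153A against WT with 11817 genes, the fit recovered 26%, 76%, 98% and 100% of genes changed by 0.25, 0.5, 1 and 2 on the log2 scale, with 10 false calls. Shared runs came from GENCODE M21 transcripts and promoters and gene order from RefSeq, both of another build than mm9. Figures used matplotlib 3.10.9 under Python 3.11.15.

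The genes, the lists and the motifs were chosen with earlier results of these data known. Named genes are the 10 genes, up to 4 called genes of each list by size of change (or its 2 most abundant where none was called), and the 3 genes most correlated with the mean of the 9 of the 10 that were tested. For the marker lists only those that bear on a statement are printed. Genes named beyond this rule, such as neighbours, Psme3, H2-T10, Nlrc5, Ptprc, the fibroblast markers under 1 FPKM and Nanog, were picked with their values in view. Alternatives covered runs of 75 and 100 bases, the omission of each library, the replicate block, robust or trendless moderation in limma, TPM, quantile and median-ratio scaling, a filter of 5 FPKM or none, and pseudocounts of 0.5 and 0.1.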

Additional observations from a re-analysis of the deposited data

How the results depend on the processing

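The log2 fold changes of the 9 tested genes stayed above 0 in 17 of 17 settings, lowest for Tapbp at 0.71 under median-ratio scaling. Genes called over all genes tested numbered 7062, and 5724 to 6756 when 1 library was left out. The summed heavy chains were 5.63-fold higher, 5.17-fold under median-ratio scaling, 5.24-fold under quantile normalization and 5.57-fold to 5.74-fold without 1 library. With a filter of 5 FPKM, which tests fewer genes, other class I genes called higher and lower numbered 3 and 1, interferon-induced genes called higher 9, and class II genes called higher and lower 0 and 1. Without a filter, ligands called higher numbered 3 (2 after rescaling to TPM) and other genes of the MHC region called lower 16. Under median-ratio scaling 7 assembly genes were called lower, and 1 immunoproteasome gene was called lower there, under TPM and under quantile normalization; the cause was not tested. Without 1 library, interferon-induced genes called higher numbered 9 to 15 and class II genes called lower 0 to 2. Shared runs of 75 and 100 bases made up 1.55% and 0% of H2-K1, 7.10% and 4.64% of H2-D1, 21.7% and 13.9% of H2-Q4, 26.1% and 14.2% of H2-T22, and 13.1% and 7.28% of H2-T23. Cd68, an immune marker that was not called, had a log2 fold change of 0.12, and -0.064 under quantile normalization. With the replicate number as a block 6876 genes were called, and deviations of same-numbered libraries correlated at -0.049, -0.0095 and 0.060, so the numbers do not pair the libraries. With depth unknown, values under 1 FPKM, as for H2-T23 and Nlrc5, cannot be given a counting error.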
